A study of Mus musculus and blank sample with 191 samples.

Results

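The regions described here are those parts of the mouse uterine epithelium with the most and the least transcript of the proliferation markers Mki67 and Top2a. Spatial whole-transcriptome profiles (GeoMx, in which barcoded probes are released and counted from a region drawn on a stained section) covered 189 regions on 2 plates, and 60 of the 95 first-plate regions were labelled epithelium. Each of these 60 was given a score, the mean of log2(Q3 value + 1) of Mki67 and Top2a, where a Q3 value is the count of a gene divided by a factor of the region taken from its upper quartile. The 20 regions with the highest score are called high regions, the 20 with the lowest are called low regions, and the 20 between them were left out of the contrast. The members were therefore chosen by the measured values of these 2 genes, whose own difference is given as a description without a test.

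The 60 regions came from 14 mice, 6 of them with 1 copy of the PV mutation in thyroid hormone receptor alpha 1 (PV/N in the labels, Thra1PV/+, here PV) and 8 wild-type (N/N in the labels, here WT). Ages were 2.4, 2.4, 4, 4.2, 5.9 and 6.3 months for PV1 to PV6, and 4, 4.5, 5, 5.4, 6.3, 6.3, 7.4 and 9 months for WT1 to WT8. The PV allele is a germline knock-in present in every tissue, so a uterine effect and a systemic one cannot be told apart. Mucosa and glands share the label epithelium, and the labels give no stage of the estrous cycle. The authors state that mice were matched for the cycle, with metestrus judged by inspection and impedance. Regions of one mouse share their source, so the counts of a mouse's regions in a class were added into one sum, and the mouse is the replicate. Each region holds many cells, so fewer cells of a type and less RNA per cell cannot be told apart.

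The uterine epithelium is a single columnar layer that lines the lumen and dips into glands, and its proliferation is under the control of ovarian steroids. Estrogen drives growth, largely through signals from the stroma, and the secretion of proteins such as lactotransferrin and complement C3. Progesterone halts luminal division and induces a receptive set of genes. Mki67 encodes a protein that coats mitotic chromosomes and is absent from resting cells. Top2a encodes the topoisomerase that untangles DNA before cells divide, and its transcript rises from S phase to mitosis.

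The promoters of both score genes are shown because they hold the sequence elements by which cell-cycle genes are recognised in textbooks, and those of Mcm3 and Cdk1 because these were among the S-phase and the G2 and M-phase genes outside the score. Sequences are from RefSeq on GRCm38.p6 and run 5′ to 3′ over the 250 bases before the start of transcription. Capitals mark the cell cycle genes homology region (CHR, TTTGAA or TTCGAA), the CCAAT box (CCAAT) and the E2F element (TTTCCCGC, TTTGGCGC, TTTGCCGC or TTTCGCGC), each searched on both strands.
Mki67 promoter (CHR and CCAAT, chr7:135716380-135716629, minus strand): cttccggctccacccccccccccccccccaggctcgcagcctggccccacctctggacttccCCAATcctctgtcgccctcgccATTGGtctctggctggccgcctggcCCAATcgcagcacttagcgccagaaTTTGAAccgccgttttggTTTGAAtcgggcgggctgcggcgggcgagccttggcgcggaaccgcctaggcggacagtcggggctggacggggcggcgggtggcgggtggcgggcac
Top2a promoter (CHR and CCAAT, chr11:99024190-99024439, minus strand): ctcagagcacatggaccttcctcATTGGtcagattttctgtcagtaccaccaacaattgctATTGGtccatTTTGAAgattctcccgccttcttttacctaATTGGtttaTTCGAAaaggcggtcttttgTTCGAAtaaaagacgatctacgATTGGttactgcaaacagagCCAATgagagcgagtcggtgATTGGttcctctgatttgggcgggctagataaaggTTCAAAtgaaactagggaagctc
Mcm3 promoter (CCAAT, chr1:20820313-20820562, minus strand): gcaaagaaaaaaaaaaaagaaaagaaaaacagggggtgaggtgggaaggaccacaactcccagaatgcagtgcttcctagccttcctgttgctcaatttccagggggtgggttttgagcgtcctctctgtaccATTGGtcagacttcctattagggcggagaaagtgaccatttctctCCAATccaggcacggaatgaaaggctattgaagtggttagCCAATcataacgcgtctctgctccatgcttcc
Cdk1 promoter (CHR, CCAAT and E2F, chr10:69352913-69353162, minus strand): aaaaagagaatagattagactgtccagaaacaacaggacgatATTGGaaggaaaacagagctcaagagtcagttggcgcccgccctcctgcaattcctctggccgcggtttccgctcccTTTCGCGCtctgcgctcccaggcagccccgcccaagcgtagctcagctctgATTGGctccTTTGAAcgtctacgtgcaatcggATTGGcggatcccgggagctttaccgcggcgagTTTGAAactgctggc

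The Mki67 window held 2 CHR and 3 CCAAT matches and the Top2a window 4 CHR and 6 CCAAT matches, with 0 E2F matches in either. The Mcm3 window held 3 CCAAT matches only. The Cdk1 window held 2 CHR, 3 CCAAT and 1 E2F match. Mki67 lies on GRCm38 chromosome 7 (135689784 to 135716361) and Top2a on chromosome 11 (98992943 to 99024189).

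The score ran from 5.02 to 7.02 (median 5.45) in the high regions and from 1.45 to 3.01 (median 2.62) in the low regions. At the borders, the regions of rank 20 and 21 scored 5.02 and 4.83, and those of rank 40 and 41 scored 3.01 and 3.01, so the lower border falls between regions of nearly equal score. The Q3 value of Mki67 was 17.1 to 136 (median 58.0) in high and 1.20 to 15.0 (median 4.75) in low regions, from 9 to 147 and 1 to 20 counts. That of Top2a was 26.1 to 131 (median 42.8) in high and 2.21 to 10.0 (median 5.22) in low regions, from 6 to 184 and 1 to 29 counts. In the low regions both genes lay near the floor of the table, with a count of 1 for Mki67 in 3 regions and for Top2a in 1. Total counts overlapped, at 150701 to 1527914 (median 778829) in high and 266169 to 3130397 (median 920820) in low regions.

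The score followed the mouse more than the region. Differences between mice held 79.8% of the variance of the score over the 60 regions. Of the high regions 8 came from PV3, 4 from WT2, 3 from WT1, 2 from PV1 and 1 each from PV4, PV6 and WT5, which makes 12 PV and 8 WT regions. Of the low regions 12 came from PV4, 2 each from WT6, WT7 and WT8 and 1 each from PV5 and WT4, which makes 13 PV and 7 WT regions. PV4 was the only mouse with regions in both classes, so a comparison of classes inside mice could not be made and the contrast is largely one between mice. The 7 mice with high regions were 2.4 to 6.3 months old and the 6 with low regions 4.2 to 9.0 months.

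**Figure D1:**
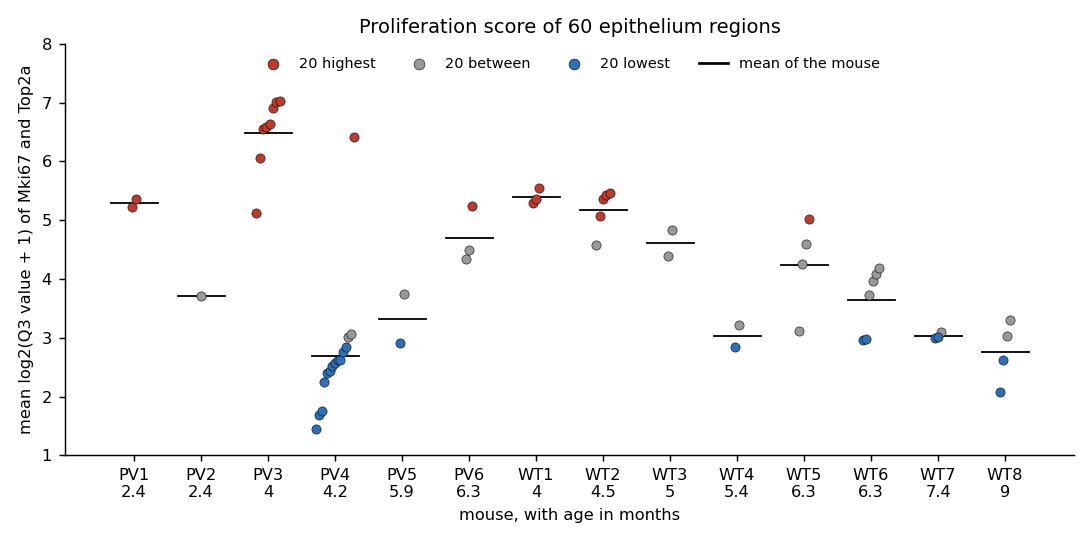
Score (mean log2(Q3 value + 1) of Mki67 and Top2a) of each of the 60 first-plate epithelium regions, by mouse with its age in months; red points are the 20 highest, blue the 20 lowest and grey the 20 between, and the line is the mean of the mouse. Regions of a mouse lie together, apart from 1 region of PV4 at 6.42 while the other 14 lie at 1.45 to 3.06.

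That region of PV4 stood apart from its mouse. Region 7 of PV4 scored 6.42, with Q3 values of 73.3 for Mki67 and 97.5 for Top2a (130 and 173 counts), against 1.45 to 3.06 in the other 14 regions of PV4. Over 7375 genes outside the cell-cycle lists, its centred profile correlated at a mean r of 0.53 with the regions of PV3 and of -0.17 with the other regions of PV4, a description across genes that share a library. In the other regions of PV4 the mean r with their own mouse was at least 0.07 and with PV3 at most -0.15. Whether the region was taken from PV4 cannot be told from the values, so main counts, and results that it moves most, are given with and without it. Without it, 90.6% of the score variance lay between mice. Of 59 regions with a companion from their mouse, 49 had their nearest region in it.

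The genotypes overlapped in their score. The mean score per mouse was 5.29, 3.70, 6.49, 2.69, 3.32 and 4.69 in PV1 to PV6. It was 5.40, 5.18, 4.61, 3.03, 4.24, 3.65, 3.03 and 2.76 in WT1 to WT8. The means were 4.37 ± 1.40 (SD, n = 6) in PV and 3.99 ± 1.02 (SD, n = 8) in WT, a difference of 0.38 (exact permutation test over 3003 splits, two-sided, p = 0.565). Both genotypes held mice at the top and at the bottom of the range, and without PV3 the difference was -0.05.

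The relation of the score to age did not pass the test. Across 14 mice the score and age gave Pearson's r = -0.51 (permutation p = 0.0647) and Spearman's rho = -0.52 (permutation p = 0.0586), and r = -0.32 without the 2 mice farthest from the median age. With adjustment over 3 relations at the level of mice, p was 0.142 for age and 0.565 for genotype. The mean over all S-phase and G2 and M-phase genes, in place of Mki67 and Top2a, gave r = -0.59 with age (permutation p = 0.0266, not adjusted). Age and class are thus partly joined in the contrast.

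Epithelial markers were present in both classes. Krt8, a keratin of simple epithelia, had a log2 CPM (counts scaled to a common library size) of 8.93 to 10.64 in high and 9.22 to 10.27 in low sums, with a log2 fold change (high over low, here and below) of 0.24 ± 0.26 (SE; edgeR adjusted p = 0.593). Epcam, a columnar adhesion molecule, ran from 7.16 to 9.49 and from 8.16 to 8.99. Columnar against fibroblast markers placed all 95 first-plate regions as labelled. The cut lay midway between the medians of the same labelled regions, so the labels set it and this is no independent check. Genes of cell-cycle inhibition and quiescence gave a mixed answer to whether the low regions are resting. Of 27 such genes 4 were lower in high regions and 2 higher (median -0.27, with 9 positive), while the inhibitors Cdkn1a (0.07 ± 0.54, adjusted p = 0.956) and Cdkn1b (-0.21 ± 0.25, adjusted p = 0.623) did not pass. The regions are therefore named by their score only.

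Between the 7 sums of high and the 6 sums of low regions, 1513 of 14879 genes passed edgeR's quasi-likelihood test (adjusted p below 0.05), which is 10.2%. Of these, 790 (5.31%) were higher and 723 (4.86%) lower in high regions, and 1366 lay outside the lists of cell-cycle genes. Without region 7 of PV4 the calls were 1181 (7.94%), 636 (4.27%) higher and 545 (3.66%) lower. With age as a covariate 219 genes remained past the threshold (1.47%), 81 (0.544%) higher and 138 (0.927%) lower, and most list calls were lost, as stated below for the larger lists. The median log2 fold change of all genes was -0.02, the level beside which the medians of the gene groups below are to be read. Their counts of calls are to be read beside the shares over all genes, 5.31% higher and 4.86% lower.

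The genes of DNA replication and mitosis rose together in the high regions. These are tied to the score genes by the cell cycle itself and are no separate evidence. Of 89 S-phase genes 54 were higher and 0 lower (median 1.11), and of 135 G2 and M-phase genes 89 were higher and 0 lower (median 1.15). Without region 7 of PV4 the calls were 48 and 74, and with age as a covariate 2 and 16. Of 7 core histone genes 4 were higher and 0 lower (median 2.02), 1 of them with age as a covariate.

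Mcm3, a subunit of the replicative helicase, had log2 CPM values of 6.05, 7.45, 7.11 and 6.01 in the high sums of PV1, PV3, PV4 and PV6. In WT1, WT2 and WT5 its high sums stood at 5.92, 5.28 and 4.87, while the 6 low sums ran from 3.13 to 4.48. All 7 high sums thus lay above every low sum (log2 fold change 2.60 ± 0.40, SE, edgeR adjusted p = 0.00212). Cdk1, the kinase that starts mitosis, lay at 3.77 to 6.51 (median 5.38) in the high and 3.01 to 3.70 (median 3.17) in the low sums, again without overlap (2.49 ± 0.31, adjusted p = 0.00116). Among 15 genes of G1 phase 5 were higher and 0 lower (median 0.67), namely Ccnd1 (cyclin D1, 1.65), Cdk2 (1.05), Cdk4 (0.89), Skp2 (0.89) and E2f3 (0.78). None of the 15 passed in edgeR with age as a covariate (median 0.44).

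The promoter windows of these groups differed in their letters. A CHR match stood in 43.2% of the windows of the G2 and M-phase genes called higher and in 30.4% of those of the same list that were not called, against 13.0% over the windows of all genes of the filtered table and 17.1% of all 32851 windows. CCAAT stood in 71.6%, 50.0%, 34.6% and 33.8% of the same windows. An E2F match stood in 21.3% of the windows of S-phase genes called higher, in 22.2% of those of S-phase genes not called and in 2.88% over the filtered table, so it goes with the list and not with the call. Among genes called higher that are in none of the cell-cycle lists, CHR stood in 13.4%, CCAAT in 45.6% and E2F in 6.64%. In the genes called lower these shares were 18.0%, 30.9% and 2.04%. A match describes the letters of the window and not a bound factor.

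Outside the cell-cycle lists, the 10 genes of lowest p that were higher in high regions were Dtymk, Tspan3, Bche, Rpa1, Cibar1, Mtr, Aldh1a1, H2ac10, Tmed1 and Trim35. Several of them also serve DNA synthesis, among them Dtymk (thymidylate kinase), Rpa1 (which binds single-stranded DNA), the histone gene H2ac10 and Mtr (methionine synthase, which returns folate to the cycle that feeds nucleotide synthesis). A gene outside the lists can thus still be tied to the score by the cell cycle, also among the 1366 counted above. The 10 that were lower were Itgam, Ifne, Pcp4l1, Sgsm1, Add2, Slc5a9, Slfn5, Btbd17, Mx2 and Cideb. In 17 of these 20 the high and low sums did not overlap, which held for 2.07% of all genes tested, and the genes were chosen for their low p. All 20 passed the threshold without region 7 of PV4, with age as a covariate and within WT, and 14 passed within PV. These fits reuse the sums by which the genes were chosen and are no separate evidence. In other regions labelled with the same mice, on the second plate, all 20 had the same sign and 11 passed, where 18.2% of all genes did. The tissue labels of part of that plate were displaced, as described below.

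Dtymk (chromosome 1, 93792576 to 93801934) had a log2 CPM of 6.43 to 7.38 (median 6.73) in the high and 5.25 to 5.88 (median 5.47) in the low sums, so the 2 ranges stood clear of each other (log2 fold change 1.36 ± 0.19, edgeR adjusted p = 0.0016). Bche, which encodes butyrylcholinesterase (chromosome 3, 73635808 to 73708415), lay at 4.90 to 6.61 (median 5.87) against 3.52 to 4.48 (median 3.78), a log2 fold change of 2.14 ± 0.30. Mtr (chromosome 13, 12182712 to 12258113) lay at 4.82 to 5.83 against 3.75 to 4.12 (1.30 ± 0.19). The widest of the 10 rises was that of Aldh1a1, a retinaldehyde dehydrogenase that makes retinoic acid (chromosome 19, 20492715 to 20643465). Its high sums were 5.77, 8.80, 8.77 and 4.36 in PV1, PV3, PV4 and PV6 and 8.54, 8.17 and 7.16 in WT1, WT2 and WT5. Its low sums ran from 3.50 to 4.80, so that the high sum of PV6 alone lay inside the low range (4.06 ± 0.59, 16.7-fold, adjusted p = 0.00172). It was also higher among the second-plate regions (3.71 ± 0.49, edgeR adjusted p = 0.00134).

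Itgam, which encodes the integrin CD11b of myeloid cells (chromosome 7, 128062640 to 128118491), had the lowest p of the genes that fell. Its log2 CPM was 7.09 and 6.04 in the low sums of PV4 and PV5 and 6.49, 7.73, 5.96 and 6.58 in those of WT4, WT6, WT7 and WT8. The high sums ran from 2.56 to 4.45, all below every low sum (-3.21 ± 0.34, adjusted p = 0.000555). Ifne, the interferon epsilon that female reproductive epithelium makes without infection (chromosome 4, 88879538 to 88880201), lay at 2.96 to 3.77 in the high and 4.47 to 5.51 in the low sums (-1.86 ± 0.22, adjusted p = 0.00116). It passed in WT (-1.91) and in PV (-1.98) and on the second plate (-0.97 ± 0.22, adjusted p = 0.0129). The negative probes, which match no transcript, stood at 2.19 to 2.76 in the high and 2.45 to 2.94 in the low sums. In all 10 lower genes the median of the high sums was within 1 log2 unit of the highest negative-probe value, so their folds start from near background.

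**Figure D2:**
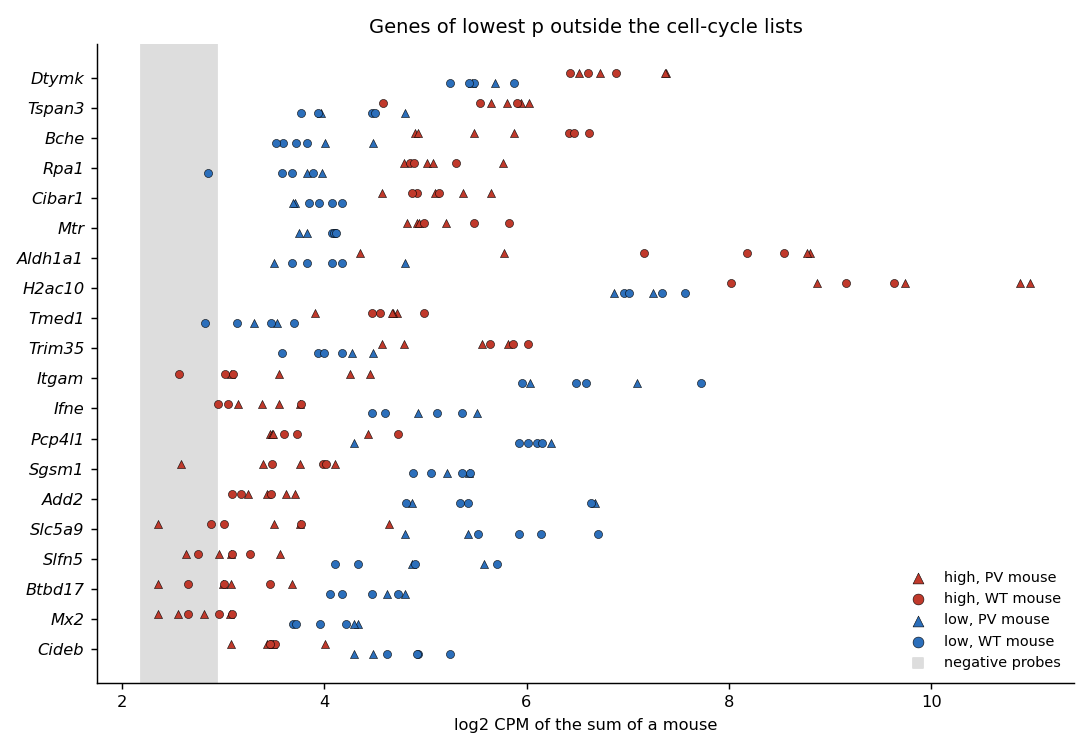
Log2 CPM of the sum of each mouse for the 20 genes of lowest p outside the cell-cycle lists, high sums in red and low sums in blue, PV mice as triangles and WT mice as circles. The grey band is the negative-probe level (2.19 to 2.94), next to which the high sums of the 10 lower genes lie.

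Of 24 genes of nucleotide and one-carbon synthesis 8 were higher and 0 lower (median 0.54), led in size by Psat1 (1.94 ± 0.41), which makes serine, Mthfd2 (1.31), Cad (1.14) and Mthfd1 (1.08). Psat1 ran from 2.56 to 7.10 in the high and 3.61 to 4.86 in the low sums, and the high sum of WT5, which is 1 region with 2 counts of this gene, was the lowest of all. Of 38 genes of ribosome biogenesis 4 were higher and 0 lower (median 0.34). None of 23 cholesterol synthesis genes passed in edgeR (median 0.42). In edgeR 1 of the nucleotide genes and 0 of the ribosome genes were higher with age as a covariate. On the second plate, where 10.4% of all genes were higher, 18 of the ribosome genes and 10 of the cholesterol genes were higher.

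Of 18 glycolysis genes 0 were higher and 3 lower (median -0.50). These were the glucose transporter Slc2a1 (-1.26), Aldoa (-0.89) and Pfkp (-0.83). None of the 18 passed in edgeR with age as a covariate (median -0.49). The direction of the group was not that of the second plate, where 3 were higher and 1, Slc2a1 (-0.64), lower. Of 36 genes of oxidative phosphorylation 1 was higher and 0 lower.

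Growth factor genes moved singly. Of 36 ligands and receptors 5 were higher and 2 lower (median -0.28). Igf1, an estrogen-induced growth factor made mostly by stroma, had high sums of 3.46, 5.28, 4.98 and 5.12 in PV and 6.48, 6.43 and 7.50 in WT, against 3.38 to 5.13 in the low sums (1.81 ± 0.48, adjusted p = 0.0255). The high sums of WT thus stood above all low sums, while those of PV overlapped them. The others were Irs1 (1.89), Igfbp4 (1.72), Fgfr2 (1.63) and Fgf18 (0.95) on the higher side and Fgfr3 (-1.44) and Igfbp5 on the lower, while the fit with age as a covariate left 1 higher and 1 lower.

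Of 36 Wnt and Hippo targets 5 were higher and 2 lower (median 0.27). Among the higher were Lgr5, a stem-cell receptor of growing glands (2.10 ± 0.37, adjusted p = 0.00443), Axin2 (1.38), Sp5 (1.26) and Znrf3 (1.23), which respond to Wnt in many tissues. Lgr5 lay at 2.87 to 6.04 (median 5.10) in the high and 2.74 to 4.08 in the low sums. Lgr5 passed on the second plate as well (1.64 ± 0.44, edgeR adjusted p = 0.0262), whereas Axin2 did not (0.65, adjusted p = 0.225). Dkk1, a Wnt inhibitor, and Tead3 (-0.80) were lower. Of the 36, 1 was higher and 1 lower with age as a covariate.

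Of the inhibitor and quiescence genes, those lower in high regions were Cdkn2a (-1.70), Btg2 (-1.10), Btg1 (-0.94) and Cdkn2b (-0.79), and those higher were Gas6 (2.66) and Cdkn2c (0.96). The fit with age as a covariate left 0 higher and 1 lower. Cdkn2a, which encodes p16 and ARF, lay at 2.64 to 3.15 in the high sums. Its low sums were 5.47 and 4.30 in PV4 and PV5 and 3.14, 3.63, 3.24 and 5.07 in WT4, WT6, WT7 and WT8. The low sums of PV4 and WT8 stood out, and the other low sums reached down to the high ones (adjusted p = 0.00974). Its difference on the second plate was -0.14 (edgeR adjusted p = 0.809).

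Interferon-response genes were lower in high regions on the first plate. In a list of 30 genes of MHC class II and interferon 0 were higher and 14 lower (median -1.09), and all 14 were interferon-response genes, among them Oas2 (-2.39), Ifi44 (-2.15), Ifit3 (-2.03), Isg15 (-1.82), Ifit1 (-1.75) and Mx1 (-1.45). The MHC class II genes did not pass, with Cd74 at 0.43 ± 0.56 (adjusted p = 0.652). Oas2, which senses double-stranded RNA, had high sums of 2.56 to 6.10 (median 4.23) and low sums of 5.75 to 8.11 (median 6.93). The high sum of PV4 alone lay inside the low range (adjusted p = 0.00861). Without region 7 of PV4 16 genes of the list were lower. In WT 8 and in PV 4 were lower, and with age as a covariate 5.

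On the second plate, where 10.4% of all genes were higher and 7.74% lower, 0 of the 30 genes passed in edgeR (median -0.13). With 30 regions a class on the first plate 0 passed as well. In that setting only 109 of all 14879 genes were lower, so its count says nothing particular about this list. Some markers of macrophages and monocytes were lower too. Of 12 such markers 6 had a positive and 6 a negative change (median 0.00375), and 0 passed as higher and 3 as lower, namely Itgam, Cd68 (-1.54 ± 0.31, adjusted p = 0.0083) and Cd14 (-1.47). Within PV 8 of the 12 were positive (median 0.23). The summed Q3 value of the list was 106 to 592 (median 286) in high and 290 to 983 (median 600) in low regions. The part of these cells in the interferon and Itgam results was not tested.

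Of 12 fibroblast markers 2 were higher, Hoxa10 (1.19) and Lum (1.17), and 1 was lower, Postn (-0.96), against 10.2% of all genes in either direction, with summed Q3 values of 554 to 1357 in high and 473 to 1429 in low regions. B and plasma cell markers summed to 54.8 to 1578 (median 218) in high and 52.0 to 3186 (median 430) in low regions, with 0 calls in edgeR. The T and NK cell, smooth muscle, neutrophil, endothelial and erythroid lists had 0 calls as well. No marker reaches 0, since a count of 0 was replaced by 1 before deposit.

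**Figure D3:**
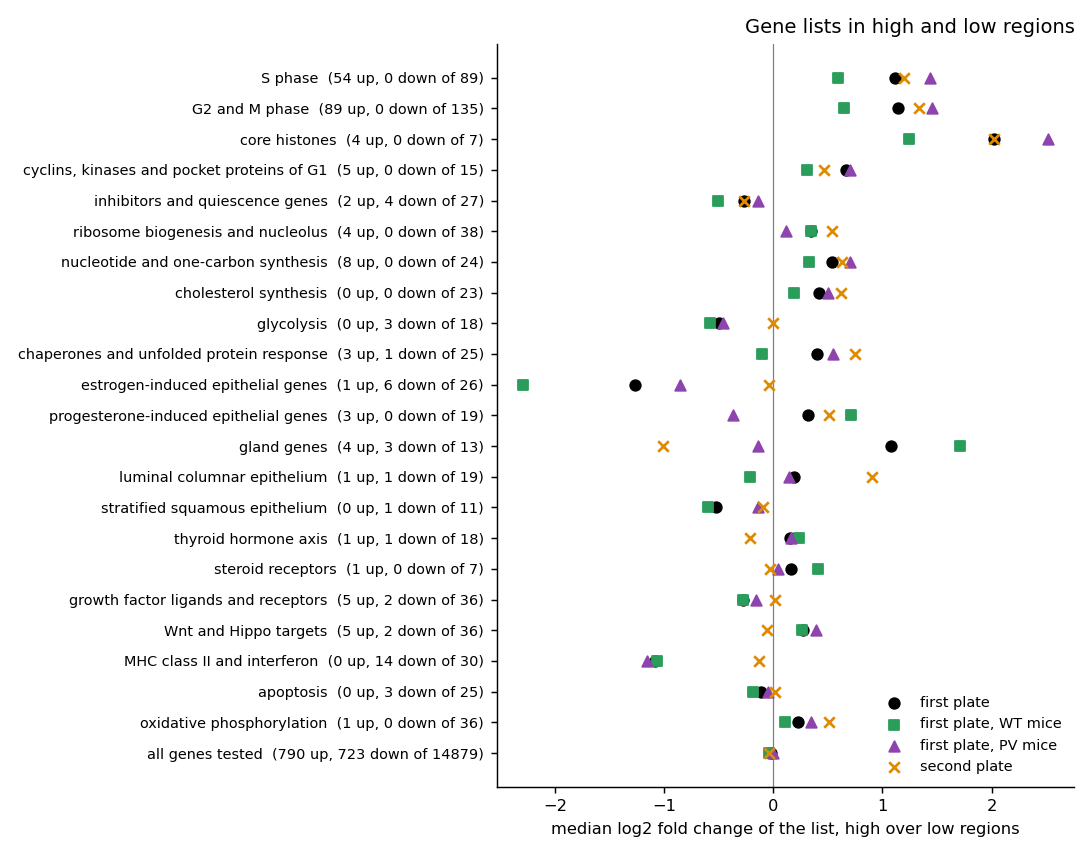
Median log2 fold change (high over low regions) of each gene list, with the edgeR calls of the first plate in brackets; black circles are all first-plate mice, green squares WT, purple triangles PV and orange crosses the second plate. The S-phase and G2 and M-phase lists lie right of 0 in all 4, while the estrogen, gland and interferon lists take different places on the second plate or between the genotypes.

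Within WT, 3 high sums (WT1, WT2 and WT5) were set against 4 low sums (WT4, WT6, WT7 and WT8), and edgeR called 752 genes (5.05%), 372 (2.5%) higher and 380 (2.55%) lower. Within PV, 4 high sums (PV1, PV3, PV4 and PV6) against 2 low sums (PV4 and PV5) gave 223 calls (1.5%), 112 (0.753%) higher and 111 (0.746%) lower. Of these, 63 genes were called in both, all 63 in the same direction, which is 8.38% of the WT and 28.3% of the PV calls. Of the S-phase genes 1 was higher in WT (median 0.59) and 21 in PV (median 1.44), and of the G2 and M-phase genes 19 in WT (median 0.65) and 40 in PV (median 1.45). Whether the lists differ between genotypes was not tested, and the 2 low sums of PV and the high sum of PV4 weigh on the PV values, which were 131 calls without region 7 of PV4.

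Several genes that estrogen induces in this epithelium were lower in the high regions. Of 26 such genes 1 was higher and 6 lower over all mice (median -1.26). In WT 1 was higher and 11 lower (median -2.29), and in PV 0 were higher and 1, Chil1 (-2.81), lower (median -0.86). With age as a covariate 1 was lower, and on the second plate 3 were higher and 0 lower (median -0.04).

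Lcn2, the iron-chelator carrier lipocalin 2 (chromosome 2, 32384633 to 32388252), had a log2 CPM of 4.79, 5.76 and 3.47 in the high sums of WT1, WT2 and WT5 and of 11.40, 12.69, 12.72 and 13.82 in the low sums of WT. In PV its high sums were 9.00, 11.74, 11.78 and 12.03 and its low sums 12.74 and 12.32. The high sums of WT thus stood far below all the rest, including the high sums of PV. The log2 fold change was -7.85 ± 0.88 (edgeR adjusted p = 0.000374) in WT and -1.04 ± 0.67 (adjusted p = 0.481) in PV, and the difference between them, 6.81 ± 1.12, passed narrowly (adjusted p = 0.0476).

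C3, complement component 3 (chromosome 17, 57203970 to 57228136), gave the same picture. Its high sums were 5.47, 6.64 and 3.77 in WT and 10.83 to 11.53 in PV, and its low sums were 12.21 to 13.37 in WT and 12.91 and 11.61 in PV. The log2 fold change was -7.00 ± 0.65 in WT (edgeR adjusted p = 6.48e-05) and -1.14 ± 0.51 in PV (adjusted p = 0.3), with a difference of 5.86 ± 0.83 (adjusted p = 0.0182). The value of WT5 rests on 1 region of 375104 counts, with 5 counts of C3 and 4 of Lcn2.

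Other genes took the same course in WT, with Clca1 at -5.06, Ltf (lactotransferrin) at -4.30, Muc1 (a mucin of the luminal surface) at -2.78 and the iron exporter Slc40a1 at -3.27. For Clca1 and Ltf the difference between genotypes did not pass (edgeR adjusted p = 0.398 and 0.546). Muc1 was lower over all mice too (-1.67 ± 0.34, adjusted p = 0.00861). The gene on the other side was Pgr, the progesterone receptor (chromosome 9, 8899833 to 8968611). It lay at 7.29 to 7.82 in the high sums of PV, at 7.67, 7.90 and 5.56 in those of WT and at 4.55 to 6.49 in all low sums. The high sum of WT5 alone fell inside the low range (1.73 ± 0.33, adjusted p = 0.00621), and Pgr was higher on the second plate as well (2.37 ± 0.27, adjusted p = 0.000828). With age as a covariate its adjusted p was 0.0951. Esr1, the estrogen receptor, differed by 0.35 ± 0.25 (adjusted p = 0.36).

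Of 19 progesterone-induced genes 3 were higher and 0 lower over all mice (median 0.32), namely Hdc (2.39), Gata2 and Ptch1 (0.65), and 0 passed in edgeR with age as a covariate. In WT 6 were higher and 0 lower (median 0.72), and in PV 0 passed (median -0.37). Lrp2, the endocytic receptor megalin, lay at 8.46, 7.57 and 5.21 in the high sums of WT1, WT2 and WT5 and at 2.55 to 4.51 in all others. Its log2 fold change was 3.83 ± 0.51 in WT (edgeR adjusted p = 0.000658) and -0.70 ± 0.68 in PV (adjusted p = 0.659), though the difference did not pass (adjusted p = 0.0982). Hdc, which makes histamine, lay at 8.90, 8.60 and 5.85 in the high sums of WT and 4.77 to 5.23 in the low sums of WT. In PV its high sums of 3.28 and 4.10 in PV1 and PV6 lay below the low sums, and those of 6.58 and 7.61 in PV3 and PV4 above.

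The test of the difference between genotypes called 5 of 14879 genes (0.0336%), Acod1, C3, Nedd9, Lcn2 and Acot7. Acod1, which makes itaconate and is induced in the receptive epithelium, lay at 6.26, 5.73 and 4.73 in the high sums of WT and 3.38 to 4.22 in its low sums. In PV it lay at 2.87 to 3.97 in the high sums and at 4.74 and 4.72 in the low sums, the opposite order. Its difference was -3.38 ± 0.47 (edgeR adjusted p = 0.0182). Nedd9, a scaffold of adhesion signalling, was lower in WT (-2.13) and at 0.35 in PV, and Acot7, a thioesterase, was higher in WT (3.25) and at -0.07 in PV. No gene passed without WT1 or without WT8, and 1 passed without PV4.

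**Figure D4:**
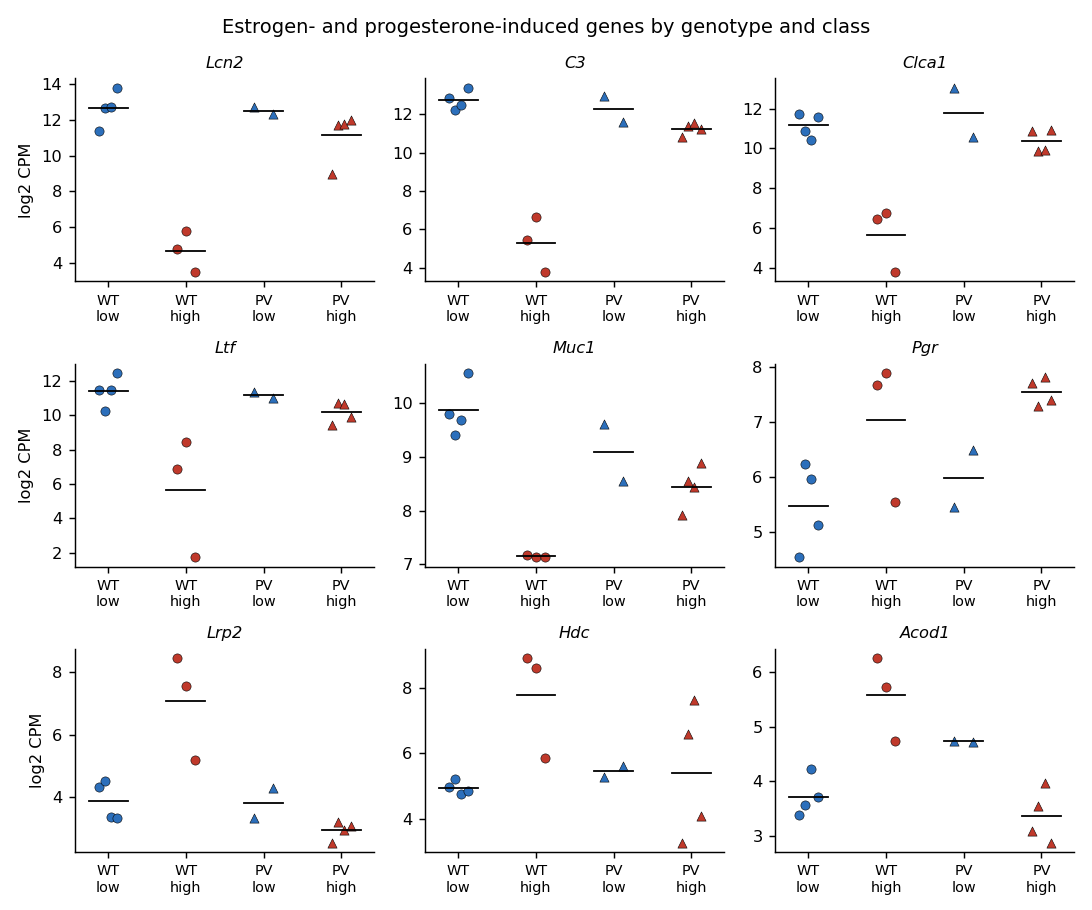
Log2 CPM of the sums of single mice for 9 estrogen- and progesterone-induced genes, by genotype and class (high in red, low in blue, line at the mean). For Lcn2 and C3 the 3 high sums of WT lie at 3.47 to 6.64 while the high sums of PV lie at 9.00 to 12.03, and Lrp2 stands above 5 in the high sums of WT only.

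Gland genes were mixed. Of 13 genes of the glandular epithelium 4 were higher and 3 lower (median 1.07). The higher were Aldh1a1, Cxcl15 (2.79), Lgr5 and Wfdc15b (2.03), and the lower Cxcl17 (-2.12), Prom1 (-1.86) and Lif (-1.71), the cytokine that opens the window of implantation. The age covariate left 1 higher and 1 lower. Cxcl15, a gland-restricted chemokine of the mouse uterus, lay at 8.08, 8.04 and 8.29 in the high sums of WT, at 5.34, 6.62, 3.12 and 4.01 in those of PV and at 3.93 to 4.69 in the low sums. All high sums of WT and 2 of the 4 of PV thus lay above every low sum (adjusted p = 0.0162). On the second plate 3 gland genes were higher and 5 lower (median -1.01), with Foxa2, Sox9 and Wfdc15b among the lower, so the sign of this group did not carry over.

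Of 19 genes of luminal columnar epithelium 1 was higher, the homeobox gene Msx1 (1.87), and 1 lower, the transcription factor Elf3 (-1.59), with a median of 0.19. On the second plate 10 were higher and 0 lower, where 10.4% of all genes were higher and 7.74% lower. These genes are also the columnar markers by which the second-plate regions were chosen. The classes there differed in that marker difference (median 1.34 in high and 0.38 in low regions), so the 10 calls are no separate result. Of 11 squamous genes 0 were higher and 1, Sprr1a (-2.17), was lower. Of 18 genes of the thyroid hormone axis 1 was higher, Thrsp (1.42), and 1 lower, Bcl3 (-1.84), and the thyroid-responsive factor Klf9 stood at 0.19 ± 0.32 (edgeR adjusted p = 0.751). Over all genes 10.2% passed in either direction on the first plate. The first-plate calls in the luminal, squamous and thyroid lists were near that share and say nothing particular about these groups.

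Inside mice, the score of each region was compared with the regions of the same mouse by a slope fitted with limma and the mouse as a fixed term. This used 58 regions of 13 mice, left out region 7 of PV4, and rested on a within-mouse SD of the score of 0.51. Regions outnumber mice here, so these p-values are too small. The fit called 799 genes (5.37%), 393 (2.64%) that rose and 406 (2.73%) that fell with the score. With region 7 of PV4 kept it called 737 (4.95%), with 3.13% of all genes rising and 271 (1.82%) falling, and the slopes of many genes were smaller. Of the S-phase genes 9 rose and 0 fell (median slope 0.16 log2 units per unit of score), and of the G2 and M-phase genes 19 rose and 0 fell (median 0.22). With region 7 kept, 51 and 95 of them rose.

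Without region 7 of PV4, several gland genes rose and several luminal genes fell along the score inside mice. Of the 13 gland genes 6 rose and 1 fell (median slope 0.60). Among those that rose were Wfdc15b (1.61 ± 0.33, limma adjusted p = 0.0149), Cxcl15 (1.61) and Foxa2 (1.26), a factor needed for glands to form. Of the 19 luminal columnar genes 0 rose and 9 fell (median -0.45), among them the galectin Lgals3 (-1.18 ± 0.24) and Elf3 (-0.86). Of the 26 estrogen-induced genes 0 rose and 7 fell (median -0.57), with C3 at -1.05 and Lcn2 at -0.93. When region 7 was kept, 2 gland genes rose and 2 fell (median 0.14), 1 luminal gene rose and 1 fell (median -0.11), and 0 estrogen-induced genes rose and 4 fell (median -0.28). Wfdc15b then had a slope of 0.67, Cxcl15 of 0.51, Foxa2 of 0.18 and Lgals3 of -0.34, none of which passed in limma, while Elf3 did (-0.55, adjusted p = 0.012).

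The slopes depended on a marker difference of the regions. With the difference of columnar and fibroblast markers as a covariate 0 genes passed in limma (728 at an unadjusted p under 0.05). With that covariate the gland genes had a median slope of 0.37 and the luminal genes of -0.11. The columnar markers in the covariate are the luminal list itself, so the luminal slopes shrink by construction. Epithelial against stromal content and luminal against gland content cannot be told apart by this fit. Plasma cell genes rose as well, with Igkc at 1.96 ± 0.38, Igha at 1.80 and Jchain at 1.15, but with region 7 of PV4 kept these slopes were 0.12, 0.048 and -0.015. Without PV3 limma called 0 genes (2291 at an unadjusted p under 0.05), in WT alone 0 (2081) and in PV alone 1 (0.00672%, with 2308 unadjusted).

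**Figure D5:**
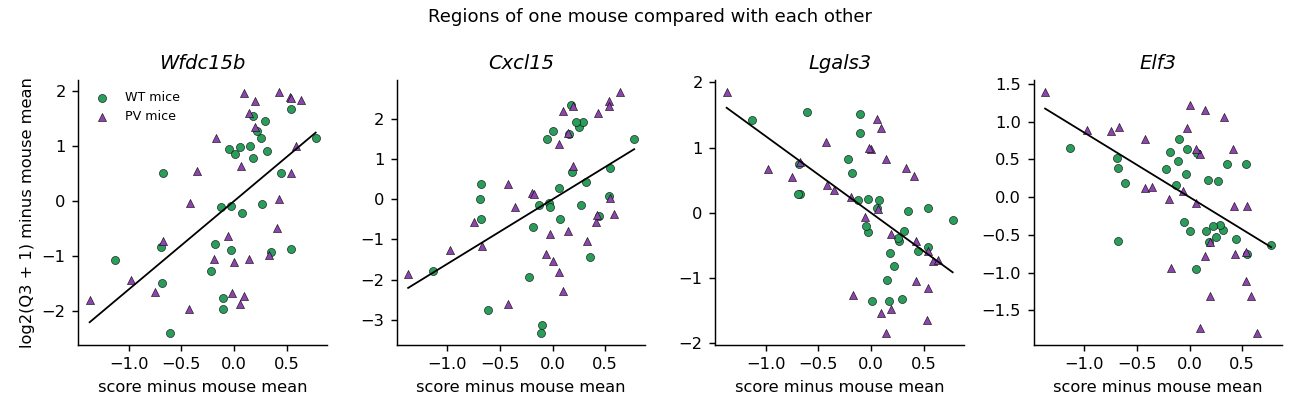
Deviation of log2(Q3 + 1) of Wfdc15b, Cxcl15, Lgals3 and Elf3 from the mean of the mouse against the deviation of the score, for 58 regions of 13 mice without region 7 of PV4 (WT green circles, PV purple triangles). The line is the limma slope, which rises for both gland genes (1.61 each) and falls for Lgals3 (-1.18) and Elf3 (-0.86), with wide scatter about it.

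The second plate held other regions of the same mice and was scored in the same way, so it is no test in separate animals. Its tissue labels were displaced over a stretch of 57 neighbouring wells. Therefore 7 high and 7 low regions were taken among the 23 labelled epithelium whose mean columnar marker level exceeded the fibroblast one. Of these 23, 10 lay outside the stretch. In tissue, all 57 wells of the stretch matched the label of the next well and 21 matched their own. Whether the animal labels of the stretch were displaced too was not tested, and the sums per mouse behind every second-plate value rest on them. As labelled, high regions came from PV3, WT1, WT2, WT6 and WT8 and low regions from PV3, PV4, WT4 and WT5, with scores of 4.93 to 6.59 and 1.78 to 3.24. On the first plate, the scores of WT6 and WT8 reached at most 4.18 and 3.30, and those of PV3 began at 5.12. Second-plate sums may therefore mix animals. EdgeR called 2703 genes (18.2%), 1552 (10.4%) higher and 1151 (7.74%) lower. Of the genes higher on the first plate 424 were higher here as well (53.7% of the first-plate and 27.3% of the second-plate genes), and 5 were lower. Of those lower on the first plate 194 were lower here (26.8% and 16.9%), and 0 were higher. The S-phase genes were 59 higher of 89 and the G2 and M-phase genes 100 higher of 135. The classes also differed in epithelial content there, with a median marker difference of 1.34 in high and 0.38 in low regions, against 0.96 and 1.27 on the first plate.

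The stroma of the same mice was not used to choose the regions. Across 13 mice with stroma on the first plate, the score of the stroma and that of the epithelium gave r = -0.48 (permutation p = 0.0949), rho = -0.40 (permutation p = 0.177) and r = -0.38 without the 2 farthest mice. In edgeR, 248 stroma genes (1.67%) followed the epithelial score of the mouse, 112 (0.753%) upward and 136 (0.914%) downward. Among those of lowest p, the matrix gene Lum rose by 0.76 ± 0.14 log2 units per unit of score, and the chemokines Cxcl17 (-0.64 ± 0.10) and Ccl12 (-0.78 ± 0.12) fell. Without WT1 or without WT2 the count was 0 (2200 and 2877 at an unadjusted p under 0.05). It was 26 without WT7, 67 without WT8 and 95 without WT5, and 78 with age as a covariate.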

How the data were processed

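The authors profiled first-plate and second-plate regions of interest, chosen by a pathologist on morphology and staining, with the GeoMx whole transcriptome assay. The deposited count table holds expected counts, with 0 replaced by 1, for 19962 targets. The deposited normalised table holds signal values of the authors, the counts divided by the third-quartile (Q3) factor of the region, for 14881 genes after their filter. The negative-probe row (5.27e-04% of counts) stayed out of tests. The 60 first-plate regions held 61691 to 3130397 counts (median 832371). Gene locations are those of GENCODE vM21 on GRCm38, since probe positions were not used here.

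The score used a pseudocount of 1. Members and gene lists were chosen with earlier results of these data known. Counts were summed per mouse and class, rounded, and tested with edgeR 4.0.16 (quasi-likelihood, TMM) (R 4.3.3) in two-sided form, p-values being adjusted over 14879 genes by Benjamini-Hochberg and read at 0.05. Mki67 and Top2a were left out of testing. Log2 CPM used a prior count of 2. The SE printed with edgeR values is the absolute log2 fold change divided by the square root of the F statistic of the test. It is not a standard error reported by the fit. The mouse was planned as a block, but only PV4 held both classes, so sums of all mice were fitted without it, with 1 sum of PV4 in each class. Genotype effects came from one model with a class effect per genotype. Slopes inside mice used limma 3.58.1 on log2(Q3 value + 1). Permutation tests over mice were exact for genotype and used 100000 resamples for correlations, and SciPy 1.17.1 adjusted their p-values.

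The genes named outside the lists are the 10 called genes of lowest p on each side, and list members named are those of lowest p. Alternatives were DESeq2 1.42.0, other scaling, filters, class sizes and scores, covariates, a random or fixed mouse block, limma on Q3 values and each mouse left out. Region 7 of PV4, age as a covariate, the slopes and the second plate were examined after the data were seen. The relation of the score to age was planned. On simulated data the main test called 63 of 100 genes changed by a log2 of 1, 100 of 100 changed by 2 and 9 of 14681 unchanged. The simulation gave all genes the same spread, with independent sums and no age difference between classes. Its rate of false calls therefore need not hold for the real contrast. The sample titles give 14 animals and the protocol 13, and ages without a unit were read as months. Replicates are the animals of the labels.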

Additional observations from a re-analysis of the deposited data

Results flagged for a closer look

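The sums of single mice were compared inside the class for the named genes, and a sum far from the rest of its class was marked. Of 184 groups tested 10 were marked, and chance marks about 1 in 20. In the high sums, WT5 was low for Tspan3 (4.58, others 5.54 to 6.02) and for Pgr (5.56, others 7.29 to 7.90), PV1 was low for Acot7 (3.08, others 5.44 to 7.08) and WT1 was high for Igfbp5 (5.68, others 4.67 to 5.08), all in log2 CPM. In the low sums, WT4 was low for Rpa1 (2.85, others 3.58 to 3.97) and Mx1 (3.77, others 4.96 to 5.56), PV5 for Pcp4l1 (4.30, others 5.92 to 6.24) and WT8 for E2f3 (3.63, others 4.16 to 4.31). PV4 was high among the low sums for the nucleolar gene Nop56 (6.97, others 5.87 to 5.96) and for Rrn3 (5.44, others 4.79 to 4.98).

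The class effect differed between the genotypes in 5 genes by the edgeR test of that difference, with PV minus WT at -3.38 for Acod1, 5.86 for C3, 2.48 for Nedd9, 6.81 for Lcn2 and -3.33 for Acot7. Each kept its sign in all settings run, whereas the adjusted p ran from 0.00748 to 0.0924 for C3 and from 0.0074 to 0.219 for Lcn2 when 1 mouse was left out.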

How the results depend on the processing

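The count of genes between high and low regions (1513) moved most with the choice of regions and covariates. It was 2471 in DESeq2, 667 in limma on per-mouse means and 2665 in limma over regions with mouse as a random block. A weighted limma fit of the count sums with such a block gave 1679. The count was 312 with 30 regions a class, 243 with a score of Mki67 alone and 2322 with the log2 total as a covariate. With age it was 219, on the second plate 2703 and at an adjusted p under 0.1 it was 2767. It was 786 to 1951 with 1 mouse left out, lowest without WT8 (786), PV3 (813), WT1 (856), WT7 (929) and WT2 (960). With 30 regions a class, the paired fit with mouse as a fixed replicate block on PV4, WT5 and WT6 called 0 genes in edgeR (688 at an unadjusted p under 0.05).

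The WT count (752) was 229 to 990, lowest without WT1 (229), WT2 (255), WT8 (310) and WT7 (484). The PV count (223) was 358 in DESeq2, 131 without region 7 of PV4 and 68 to 436 with 1 mouse left out, lowest without PV3 (68) and PV4 (92). The difference between genotypes (5) gave 3 genes with upper-quartile scaling, 41 in DESeq2, 3 without region 7 of PV4 and 0 to 19 with 1 mouse left out. The slope inside mice (799) gave 353 genes without PV4, 0 without PV3, 0 in WT, 1 in PV, 548 with depth as a covariate and 0 with markers alone or with depth and markers. The stroma count (248) was 412 with genotype and 78 with age as a covariate and 0 to 874 with 1 mouse left out. The score difference between genotypes was -0.047 to 0.71 with 1 mouse left out, and turned without PV3 (-0.047). Score against age gave r = -0.59 over the cell-cycle lists.

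Of 600 values of the 20 named genes under alternatives, 553 kept direction and side of the threshold, 46 lost the call (19 of them under the fixed block) and 1 turned, Mtr at -8.39e-04 under the fixed block. The 20 genes were chosen for low p in the main fit, and most alternatives refit the same regions. The share that kept the call is therefore raised by the choice and is no separate evidence. Where the cause of a change is not given by the setting itself, the cause was not tested. Low counts limit the genes lower in high regions, whose folds start from near the negative probes.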
